A study of Mus musculus with 10 samples.

Results

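Imprinted genes are read mainly from the copy inherited from 1 parent. A list of 37 mouse genes with known parent-of-origin expression was followed in the whole brain of newborn mice, and 36 of the 37 had a row in the table of 18444 genes. *Phlda2*, a maternally expressed placental growth regulator, had none. The 36 genes lie in 18 imprinted domains on 10 chromosomes. By the allele known to be active in the mouse, 12 were classed as maternally expressed and 22 as paternally expressed, and *Grb10* and *Gnas*, whose active allele differs between tissues or promoters, as neither. The genes were chosen by name, by a rule that uses no value measured here, although earlier results of these data were known when the list was made.

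The study asked how loss of 1 copy of *Arid1b*, a DNA-binding subunit of the BAF chromatin-remodelling complex, alters the brain transcriptome. The 5 HT libraries came from male C57BL/6N mice at postnatal day 3 that were heterozygous for a CRISPR/Cas9 edit of exon 5 of *Arid1b* that truncates the protein, and the 5 WT libraries from wild-type males of the same strain and age. Per the study's methods, HT fathers were bred to WT mothers, so that the edited copy was the paternal one. All mutants carried this single edited line, the opposite cross was not analysed here, and both parents were of the same inbred strain, so that reads of the 2 parental copies of an imprinted gene cannot be told apart. The labels give no litter, so p-values measure the spread between these 10 libraries.

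At most imprinted domains the copies are marked by DNA methylation that was laid down in the egg or the sperm and is kept after fertilisation with the help of the zinc finger proteins ZFP57 and ZFP445. A domain often pairs a long noncoding RNA read from one parental copy with coding genes read from the other. Many imprinted genes are expressed in the developing brain, with high levels in the hypothalamus, and act on growth, feeding and the care of young. Their loss underlies Prader-Willi syndrome, through paternally expressed genes such as *SNRPN*, *NDN* and *MAGEL2*, and Angelman syndrome, through maternally expressed *UBE3A*.

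The sequence upstream of 3 sets of members to which the results return is shown first, from RefSeq on GRCm38.p6. Each is written 5′ to 3′ on the strand given, with each CpG, the site of DNA methylation, in capitals. The upstream stretch of *Asb4* covers chr6:5383136-5383385 on the plus strand and holds 4 CpG. That of *Nap1l5* covers chr6:58907127-58907261 on the minus strand and holds 8 CpG. Bases in annotated exons of *Herc3* were left out of it, which left 135 bases against 250 for *Asb4*. It also stops short of the annotated start of *Nap1l5* at 58907076, so the CpG counts of these 2 are not over like stretches. The stretch that separates the divergent starts of *Peg3* and *Usp29* covers chr7:6730432-6730577, written on the plus strand, and holds 5 CpG.
Asb4 upstream: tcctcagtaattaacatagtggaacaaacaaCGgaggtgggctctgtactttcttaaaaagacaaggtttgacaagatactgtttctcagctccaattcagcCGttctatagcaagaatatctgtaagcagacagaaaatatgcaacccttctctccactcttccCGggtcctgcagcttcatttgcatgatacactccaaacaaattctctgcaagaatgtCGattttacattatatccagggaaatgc
Nap1l5 upstream: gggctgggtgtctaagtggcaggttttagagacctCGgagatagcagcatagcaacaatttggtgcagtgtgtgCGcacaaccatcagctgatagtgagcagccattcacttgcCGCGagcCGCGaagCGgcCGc
between Peg3 and Usp29: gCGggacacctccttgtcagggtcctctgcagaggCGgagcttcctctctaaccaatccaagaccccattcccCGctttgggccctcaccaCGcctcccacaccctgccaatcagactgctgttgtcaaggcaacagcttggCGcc

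Windows of 300 bases around the transcription start, from 250 bases before it to 50 after it, were held for 29 of the 37 genes. The letters TGCCGC, which ZFP57 recognises when the CpG within them is methylated, were searched on both strands and found for 11 of these 29 genes (37.9%), against 13.1% of 27025 genes with such a window. The upstream stretch of *Nap1l5* printed above holds these letters and the other 2 do not. A gene was counted if any of its windows held the letters. With the window richest in CpG taken for each gene, the median over genes was 17 CpG for the imprinted genes and 8 for all genes. The 29 genes had 42 windows and the 27025 genes had 32851. Genes with more windows had more chances of both, and neither contrast was corrected for this. The letters themselves hold a CpG, so windows richer in CpG have more chances of holding them. The shares with the letters were not matched for CpG content. These counts describe the letters, and methylation was not measured here.

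A further set of sequences belongs to *Rtl1*, a paternally expressed retrotransposon-derived coding gene. In the same interval the maternal copy yields an antisense transcript that is cut into microRNAs, which pair fully with *Rtl1* mRNA and are known to cleave it. RefSeq places 11 mature microRNAs from 6 hairpins on the plus strand over the *Rtl1* transcript, which is read from the minus strand, and all 11 were perfectly complementary to it. One mature microRNA of each hairpin is shown, with the seed, bases 2 to 8, in capitals. No seed was shared among the 11.
mmu-miR-431-5p: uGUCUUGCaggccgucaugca
mmu-miR-433-3p: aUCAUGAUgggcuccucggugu
mmu-miR-127-3p: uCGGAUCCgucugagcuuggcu
mmu-miR-434-3p: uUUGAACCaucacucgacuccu
mmu-miR-432: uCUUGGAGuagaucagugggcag
mmu-miR-136-5p: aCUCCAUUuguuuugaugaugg
All 11 lie on chromosome 12 between 109590459 and 109595387 (GRCm38.p6). Poly-A libraries do not measure mature microRNAs, and no value for them is given.

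Values are normalised read counts: the reads that Salmon estimated for a gene, divided by the size factor of the library. They totalled 27.24 M to 29.03 M per library (M, 1000000). *Arid1b* (chromosome 17, 4994332 to 5347656, GRCm38) was measured at 2372, 2230, 2253, 1505 and 2142 in HT 1 to 5, and at 3386, 3155, 3597, 3429 and 3108 in WT 1 to 5. HT levels were 63.0% of WT levels with no overlap, a log2 fold change of -0.68 ± 0.11 (SE, n = 5 and 5; exact permutation p = 0.00794, the smallest that 5 against 5 libraries can give). Its p in the limma fit, 2.29e-05, became 0.390 after Benjamini-Hochberg adjustment over 17020 genes, and without HT 4 the adjusted p was 2.52e-04 (log2 fold change -0.57). HT 4 stood apart: it had the lowest total, its deviations fell with transcript length (Spearman rho -0.457 across genes, which are not independent, against -0.162 to 0.305 in the other libraries), and it was the lowest or highest of the 10 libraries for 52.2% of genes. Among the 36 imprinted genes it was lowest for 10 and highest for 12 (61.1%), with a median transcript length of 4572 bases where it was lowest and 2148 bases where it was highest. The counts of members and the fold changes that HT 4 moved most are therefore also given without it, and the plot of fold changes shows both fits for all 36 genes. Markers of neurons were high in all libraries, from 2951 to 4063 for *Rbfox3*.

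The 36 listed imprinted genes made up 1.16% to 1.26% of all normalised counts, and other imprinted genes were not included. The maternally expressed genes among them took 0.618% to 0.731% and the paternally expressed genes 0.385% to 0.451%. A single noncoding RNA, *Meg3*, held 0.413% to 0.526%, so that it outweighed the 22 paternally expressed genes together in 9 of 10 libraries, all but HT 4. Per kilobase of transcript (the median length of the gene's annotated transcripts), *Meg3* averaged 68587 ± 5833 (SD, n = 10), rank 10 among all genes.

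*Meg3* lies in the *Dlk1*-*Dio3* domain, where the maternal copy is read into a series of noncoding RNAs. Its counts were 133916, 126754, 152751, 112511 and 133414 in HT 1 to 5 and 142220, 123984, 142184, 137259 and 126963 in WT 1 to 5. HT libraries held both the highest and the lowest value. *Rian*, the next RNA of the series and a host of small nucleolar RNAs, was among the steadiest genes of the set, at 38343, 40147, 40923, 37805 and 39049 in HT and 37300, 39560, 37786, 38638 and 39661 in WT. Its SD on the log2 scale over the 10 libraries, 0.043, stood at percentile 1.40 of the SD of all genes tested. *Mirg*, the microRNA host at the far end, was much lower at 188 ± 15.5 per kilobase. On the longest annotated transcript the level of *Meg3* would be 9156 per kilobase and that of *Rian* 4812, so the order at the top depends on the transcripts used.

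*Nnat*, paternally expressed and encoding a small membrane protein of the endoplasmic reticulum, came next at 36307 ± 3747 per kilobase. Its counts were 27366, 29171, 31053, 37821 and 31220 in HT and 29580, 30722, 26581, 29594 and 33138 in WT, with HT 4 above the rest. *Nnat* sits inside an intron of *Blcap*, whose brain transcripts come mainly from the maternal copy. *Blcap* counts ran 4267, 4607, 4351, 4900 and 4433 in HT and 4284, 4588, 4062, 4376 and 4511 in WT (2132 ± 110 per kilobase). The groups overlapped for both genes. *Gnas*, which encodes the stimulatory G protein alpha subunit, gave 31038, 32964, 32930, 37926 and 34981 in HT and 31491, 31119, 31161, 30229 and 34967 in WT (10989 ± 808 per kilobase), and reads of its maternal, paternal and biallelic promoters were summed in 1 row.

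Of the Prader-Willi/Angelman genes, *Snrpn*, a core spliceosome protein of neurons, was the highest at 6623 ± 517 per kilobase. Its counts were 12241, 12829, 13423, 15748 and 13857 in HT and 13242, 13735, 12794, 12464 and 12382 in WT. *Ndn*, a MAGE-family protein of postmitotic neurons, was close to it in counts, at 12106, 12793, 13715, 15516 and 14143 in HT and 13172, 13241, 12247, 12364 and 12417 in WT, and lower per kilobase at 3566 ± 287. For both, HT 4 was the highest of the 10 libraries and the groups overlapped. *Ube3a*, the ubiquitin ligase of the maternal copy, reached 938 ± 120 per kilobase, *Magel2* 237 ± 13.6, *Mkrn3* 206 ± 21.7 and *Peg12* 26.3 ± 3.69. *Snrpn* shares 35.3% of its 30-base words with *Snurf* and other annotated genes, and *Ube3a* 26.6% with its antisense transcript *Snhg14* and other genes, so these levels depend on how reads were divided.

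*Inpp5f*, an inositol phosphatase of which only some transcripts are imprinted, had 13946, 14341, 13672, 14040 and 13689 in HT and 13076, 14095, 12931, 13237 and 13579 in WT (4242 ± 144 per kilobase). *Peg13*, a noncoding RNA within *Trappc9*, had 8463, 8216, 8007, 7315 and 8511 in HT and 8298, 8166, 8268, 8137 and 7645 in WT (1715 ± 77.9). The groups overlapped for both, and the group means of *Peg13* were 8102 and 8103. At the other end of the set stood *Rtl1* at 10.1 ± 1.67 per kilobase and *Kcnq1ot1* at 13.3 ± 2.09, the latter over an annotated transcript of 93092 bases. *Nap1l5* averaged 3055 ± 352 per kilobase, and the members whose level is not given above fell between 29.9 and 1253.

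**Figure D1:**
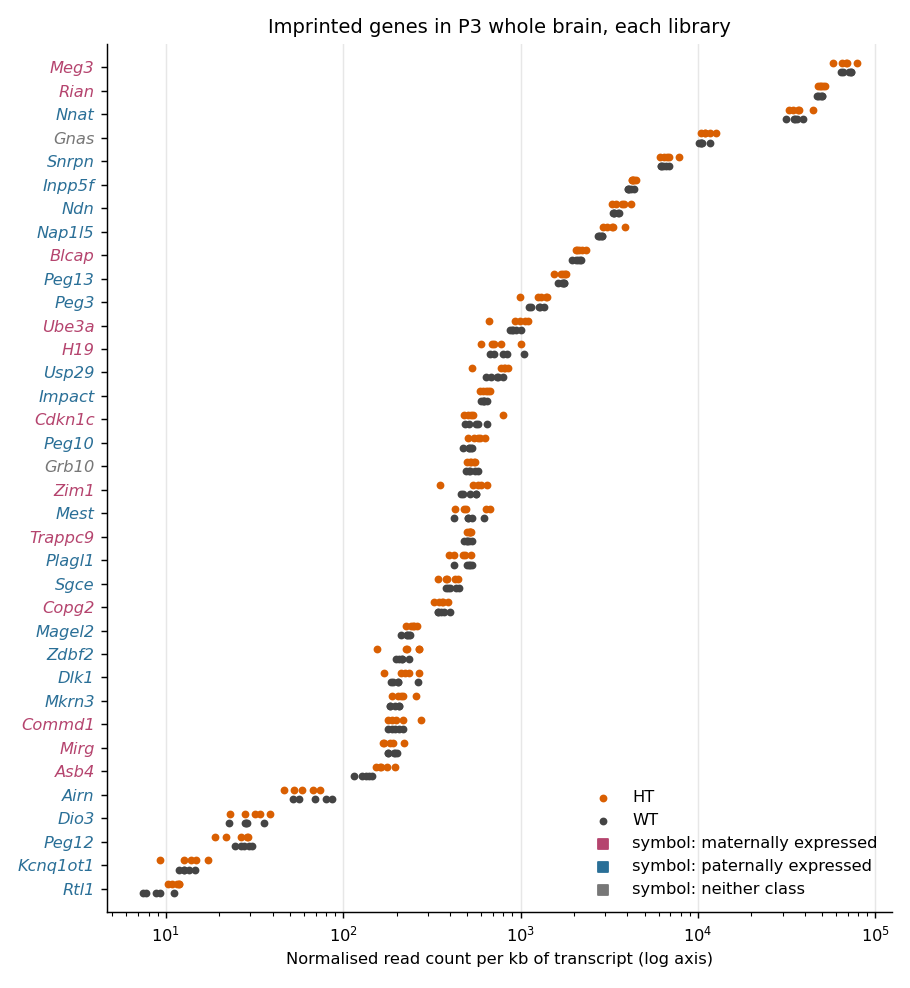
Level of each of 36 imprinted genes in every library, as normalised read count per kilobase of transcript on a log axis, with HT points above WT points and the colour of the symbol giving the parental class. Levels run from 10.1 for Rtl1 to 68587 for Meg3, while HT and WT points of a gene lie close together.

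The 5 members that varied most across the 10 libraries (SD on the log2 scale) were *Airn* (0.29), *H19*, *Rtl1* and *Zim1* (0.25 each) and *Dio3* (0.24). *Airn*, the noncoding RNA that silences the paternal *Igf2r* gene, gave only 49.3, 45.1, 31.0, 35.3 and 39.2 in HT and 35.0, 53.8, 58.3, 37.8 and 46.2 in WT. *Dio3*, the enzyme that inactivates thyroid hormone, gave 40.2, 67.0, 48.5, 59.2 and 55.3 in HT and 49.3, 39.7, 48.6, 62.2 and 49.9 in WT. Both are low counts, for which the error of counting reads was not modelled. *Zim1*, a zinc finger gene next to *Peg3*, gave 1985, 1648, 1760, 1082 and 1823 in HT and 1716, 1581, 1452, 1722 and 1405 in WT, with HT 4 the lowest of all.

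*H19*, a maternally expressed noncoding RNA of growing mesoderm, gave 1569, 1611, 1781, 2286 and 1373 in HT and 1544, 1911, 2381, 1630 and 1831 in WT. The highest value was that of WT 3. The summed markers of meninges and fibroblasts (8 of 8 measured) reached 34417 in WT 3, against 8444 to 16081 in the other WT libraries and 7597 to 13295 in HT. This sum is mainly collagen: *Col1a1* reached 17074 and *Col1a2* 12174 in their highest library, and each other marker 3686 or less. The log2 fold change of *H19* was -0.11 ± 0.14 (exact permutation p = 0.492), -0.02 without WT 3 and -0.22 without HT 4. *Igf2*, the growth factor on the same domain that is read from the paternal copy in most tissues and from both copies in the choroid plexus and meninges, gave 7302, 7167, 5941, 9850 and 6378 in HT and 7138, 8086, 6997, 7344 and 6111 in WT, with a log2 fold change of 0.022 ± 0.12 (exact permutation p = 0.865) that was -0.091 without HT 4. It shares 63.2% of its 30-base words with overlapping annotated genes. The part of meningeal tissue in these values was not tested.

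For HT against WT, none of the 36 imprinted genes passed an adjusted p of 0.05 in limma, and none of the 17020 genes tested did (0%). At an unadjusted p under 0.05 there were 4 of 36 (11.1%), against 580 of all genes tested (3.41%). All 4 were higher in HT, a direction in which 1.47% of all genes met this level, and none was lower, where 1.93% did. They were *Asb4*, *Nap1l5*, *Peg10* and *Rtl1*. Without HT 4, where 2 genes (0.0118%) but no member passed after adjustment, the same count was 9 of 36 (25.0%), against 8.40% of all genes (4.69% in the higher direction), and again all were higher in HT: the 4 above with *Peg3*, *Usp29*, *Zim1*, *Ube3a* and *Zdbf2*. It was 2, *Asb4* and *Nap1l5*, without HT 5 and also without WT 2. The median of the mean counts was 1842 for the members and 542 for all genes tested. The shares of all genes given here and below were not matched for this level.

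*Asb4*, the maternally expressed substrate adaptor of a ubiquitin ligase that is known for its expression in hypothalamic neurons, was measured at 358, 360, 389, 436 and 340 in HT 1 to 5 and at 323, 310, 254, 297 and 281 in WT 1 to 5. All HT libraries were above all WT libraries. The group means were 377 ± 37.7 and 293 ± 26.8 (SD over 5 libraries), which differed by 0.36 ± 0.091 on the log2 scale (SE; limma p = 0.00164, adjusted p = 1.00; exact permutation p = 0.00794). Without HT 4, the highest library, it was 0.31. *Asb4* (chromosome 6, 5383386 to 5433022) lies in the *Peg10* domain and shares no 30-base word with another annotated gene.

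*Nap1l5*, paternally expressed, encodes a relative of the nucleosome assembly proteins and sits within *Herc3*. Its counts were 5410, 5675, 6162, 7113 and 6078 in HT and 5280, 5047, 5088, 5184 and 5296 in WT. Again the groups did not overlap, and the WT libraries were close together, 5179 ± 111 against 6088 ± 650 in HT. The log2 fold change was 0.23 ± 0.065 (limma p = 0.00400, adjusted p = 1.00; exact permutation p = 0.00794), and 0.17 without HT 4. The upstream stretch of this gene (chromosome 6, 58905233 to 58907076) is the one shown above with the TGCCGC letters. Members whose groups did not overlap were thus 2 of 36 (5.56%), both higher in HT, against 0.629% of all genes tested (0.282% higher and 0.347% lower).

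*Peg10*, a paternally expressed gene derived from a retrotransposon that the placenta needs, gave 4205, 3831, 3645, 3376 and 3921 in HT and 3413, 3168, 3391, 3541 and 3499 in WT. Here 4 of 5 HT libraries were above every WT library and HT 4 was below 4 of the 5 WT libraries. The means were 3795 ± 310 and 3402 ± 145, a log2 fold change of 0.15 ± 0.06 (limma p = 0.0233, adjusted p = 1.00; exact permutation p = 0.0476). It was 0.20 without HT 4 (limma, adjusted p = 0.364), and without HT 1 it missed the unadjusted level (0.0646 in limma). *Sgce*, which encodes epsilon-sarcoglycan and starts next to *Peg10* on the opposite strand of chromosome 6, had a log2 fold change of -0.06 ± 0.079.

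*Rtl1* gave 73.5, 68.6, 75.1, 65.8 and 75.9 in HT and 70.4, 48.9, 56.2, 47.3 and 58.8 in WT. Only WT 1 fell within the HT range. The means were 71.8 ± 4.37 and 56.3 ± 9.24, a log2 fold change of 0.36 ± 0.14 (limma p = 0.0252, adjusted p = 1.00; exact permutation p = 0.0238), and the limma p was 0.0633 without WT 4. The log2 fold change was 0.39 without HT 4. Genes on the opposite strand, with the microRNA genes above among them, overlap 8.12% of its exonic bases, and how strand was set in Salmon is not given in the sources used here. Of the other genes of the domain, the log2 fold change was -0.033 for *Meg3*, 0.024 for *Rian*, -0.031 for *Mirg*, 0.081 for *Dlk1*, a Notch-related membrane protein, and 0.11 for *Dio3*, and each of these overlapped between the groups. Without HT 4 the value for *Meg3* was 0.022, that for *Mirg* -0.092 and that for *Dlk1* 0.0076, while that for *Rian* was -0.014 after quantile normalisation and that for *Mirg* 0.0054 without HT 1.

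**Figure D2:**
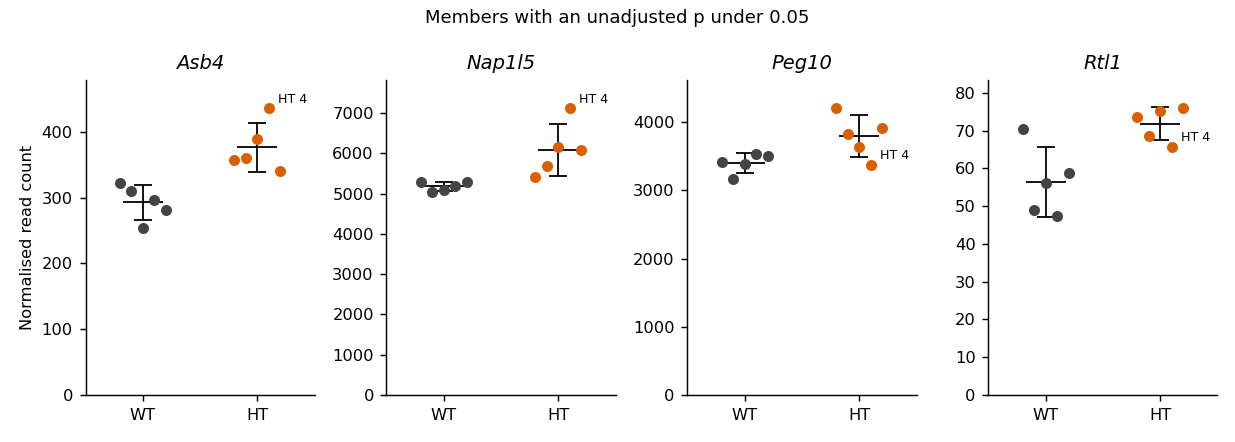
Normalised read counts of Asb4, Nap1l5, Peg10 and Rtl1 in 5 WT and 5 HT libraries, with the mean and SD of each group as bars and HT 4 marked. HT and WT points do not overlap for Asb4 and Nap1l5 and overlap for Peg10 and Rtl1.

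Summed markers of the hypothalamus and of the choroid plexus did not overlap between the groups, while the sums of the other lists did. The exact permutation p of these sums were not adjusted over the lists. The summed hypothalamic markers (7 of 8 measured, *Agrp* having no row) were 577 to 657 in HT and 520 to 571 in WT, without overlap (exact permutation p = 0.00794). Of these, 7 of 7 were higher in HT, against 46.4% of all genes tested. Only *Nr5a1*, with low counts of 2.03 to 19.8, had an unadjusted limma p under 0.05. The summed markers of the choroid plexus (7 of 7 measured) were 6775 to 9662 in HT and 10239 to 13957 in WT, without overlap (exact permutation p = 0.00794). *Ttr*, at 6181 to 12998, makes up most of this sum. All 7 of 7 were lower in HT. Of them 4 (*Ttr*, *Folr1*, *Clic6* and *Aqp1*) had an unadjusted limma p under 0.05, against 1.93% of all genes tested in this direction. None of these markers was at 0 in any library. HT 4 was inside the HT range of both lists, at 632 and 9364. In whole tissue, a larger share of cells of one kind and more RNA per cell cannot be told apart. The part of either in the values of *Asb4*, *Nap1l5*, *Peg10*, *Rtl1* and the other imprinted genes was not tested. Summed neuronal markers were 116271 to 129550 in HT and 118705 to 125278 in WT (exact permutation p = 0.421), those of vessels 7104 to 8289 and 7192 to 8596 (0.714), and those of erythroid cells 5960 to 13733 and 4528 to 13889 (0.294). All 6 erythroid markers tested were higher in HT and all 4 pituitary markers tested were lower, while neuronal, vessel and meningeal markers went both ways. A shared direction was thus not particular to the lists of hypothalamus and choroid plexus.

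**Figure D3:**
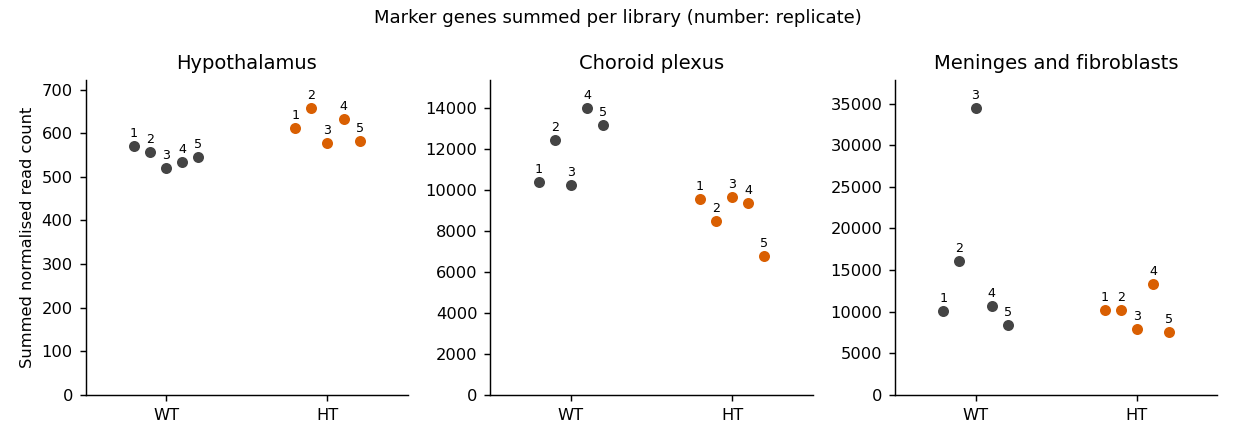
Summed normalised read counts of the markers of hypothalamus, choroid plexus, and meninges and fibroblasts in each library, with the replicate number beside each point. HT and WT do not overlap for the first 2 lists, and WT 3 stands at 34417 for the third.

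Over all 36 genes, 26 had a log2 fold change above 0 (72.2%) and 10 below, against 46.4% above 0 among all genes tested. Without HT 4 it was 27 of 36 (75.0%), against 49.6%, with the length and GC trend removed 28 of 36 (77.8%), against 54.3%, and with both 27 of 36 (75.0%), against 54.5%. The median log2 fold change was 0.049, against -0.0074 over all genes tested, and 0.037 without HT 4. The differences were small: all lay between -0.20 (*Airn*) and 0.36 (*Asb4* and *Rtl1*). Genes of a domain share their control elements and libraries and are not independent of each other.

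The maternally expressed genes divided into 8 above and 4 below 0, with a median of 0.024. Without HT 4 the split was the same in number, with a median of 0.02, and the median was 0.0078 without WT 5, 0.016 without HT 3 and also without WT 3, and 0.044 with the length and GC trend removed. The paternally expressed genes divided into 17 above and 5 below, with a median of 0.06, which was 0.062 without HT 4 and 0.035 without HT 1. The difference between the classes was not tested. The paternally expressed genes together took 0.399%, 0.399%, 0.409%, 0.451% and 0.408% of counts in HT and 0.399%, 0.399%, 0.385%, 0.393% and 0.396% in WT, which overlapped (0.413 ± 0.0217 against 0.394 ± 0.00598), with HT 4 the highest. The maternally expressed genes took 0.664% ± 0.0418 in HT and 0.674% ± 0.0272 in WT, a sum that *Meg3* dominates. All members but *Meg3* took 0.743% ± 0.0345 in HT and 0.715% ± 0.0109 in WT, again with HT 4 the highest, at 0.804%. *Grb10*, a growth-restraining adaptor read from the maternal copy in most tissues and from the paternal copy in neurons, averaged 2514 ± 106 in HT and 2517 ± 158 in WT.

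**Figure D4:**
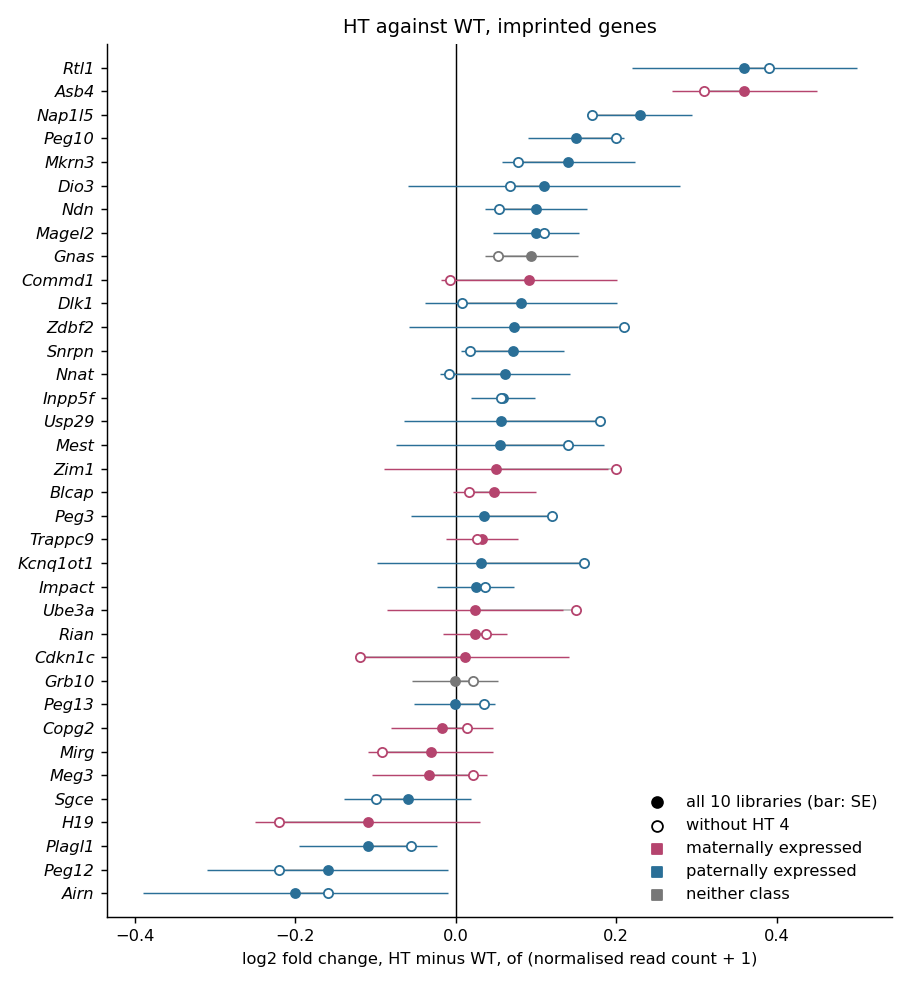
Log2 fold change, HT minus WT, of 36 imprinted genes, with filled points and SE bars for all 10 libraries and open points for the fit without HT 4. Of the filled points 26 lie above 0, and open points move right for long transcripts such as Zdbf2 (0.072 to 0.21).

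All 3 genes of the *Peg3* domain moved upward when HT 4 was left out. *Peg3* encodes a zinc finger protein expressed in hypothalamus and placenta, *Usp29* a deubiquitinase read from the opposite strand, and *Zim1* a maternally expressed zinc finger protein. With all libraries their log2 fold changes were 0.035 ± 0.091, 0.056 ± 0.12 and 0.05 ± 0.14. Without HT 4, the lowest library for all 3, they were 0.12, 0.18 and 0.20, with an adjusted p of 0.594, 0.446 and 0.481 in limma. *Zdbf2*, a paternally expressed gene with a transcript of 12370 bases, went from 0.072 to 0.21 (limma, adjusted p = 0.446), and *Ube3a* from 0.024 to 0.15 (limma, adjusted p = 0.481). With a trend on transcript length and GC content removed from every library and all 10 kept, 6 of 36 members had an unadjusted p under 0.05 (16.7%; 4.38% of all genes, and 2.69% in the higher direction): the 4 above, *Magel2* and *Zdbf2*. With both changes there were 10 (27.8%; 8.07% of all genes, and 4.93% in the higher direction), of which *Peg3* was not one. All of these were higher in HT and none passed after adjustment.

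Of the remaining genes, *Magel2*, a MAGE-family protein of hypothalamic neurons, had 1159, 1048, 1202, 1120 and 1153 in HT and 1085, 987, 1065, 1057 and 1098 in WT (log2 fold change 0.10 ± 0.054; limma p = 0.0812; exact permutation p = 0.0476). *Ndn* (0.10), *Snrpn* (0.071) and *Mkrn3* (0.14), which encodes a ubiquitin ligase that restrains the onset of puberty, had higher means in HT with unadjusted p of 0.129, 0.282 and 0.107. HT 4 was the highest library for all 3, and without it these values were 0.054, 0.018 and 0.077. *Peg12* (-0.16) and *Plagl1* (-0.11), a zinc finger transcription factor, had lower means with p of 0.308 and 0.222, and without HT 4 these were -0.22 and -0.056. *Cdkn1c*, the cell cycle inhibitor p57, ran from 912 to 1517 in HT and 915 to 1232 in WT, and its log2 fold change was 0.011 with HT 4 and -0.12 without it. *Gnas* (0.094) and *Blcap* (0.048) had p of 0.132 and 0.379, and were 0.053 and 0.017 without HT 4. *Impact* (0.025), a regulator of translation under stress, *Trappc9* (0.033) and *Inpp5f* (0.059) varied little between libraries, with SD on the log2 scale of 0.057, 0.044 and 0.049. The log2 fold changes of *Mest* (0.055), *Copg2* (-0.017), *Kcnq1ot1* (0.032), *Commd1* (0.091), *Nnat* (0.061) and *Peg13* (-0.0016) were smaller than their SE, and all 6 changed sign under some setting.

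Neighbouring genes of a domain were then compared across the 10 libraries on the log2 scale, in 12 pairs fixed by position. After Benjamini-Hochberg adjustment over the 12 pairs, 5 passed 0.05 in Pearson's correlation by permutation, 3 positive and 2 negative, and only *Peg3* with *Usp29* and *Snrpn* with *Ndn* passed in Spearman's. Without HT 4 these same 2 pairs were the only ones left. The count was 3 without HT 3 and 3 without WT 2. How many pairs of genes from different domains would pass was not measured. HT 4 was the lowest or highest library for 52.2% of all genes tested. The counts and correlations therefore cannot be read as particular to neighbours in a domain.

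*Peg3* and *Usp29*, whose annotated starts are 0.147 kb apart across the stretch shown above, had r = 0.97 (permutation p = 6.00e-05, adjusted p = 3.60e-04) and rho = 0.94 (permutation p = 1.30e-04, adjusted p = 0.00144). The correlation was 0.98 within HT and 0.93 within WT, 0.94 without the 2 libraries farthest from the median of *Peg3* (HT 4 and WT 2), and 0.93 without HT 4 (exact adjusted p = 0.00519). With the length and GC trend removed it was 0.66 (permutation adjusted p = 0.0822). Both have long transcripts, 8694 and 4420 bases, and the share of the length trend in their common variation was not tested further.

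*Snrpn* and *Ndn*, both paternally expressed and 2206 kb apart, had r = 0.96 (permutation p = 4.00e-05, adjusted p = 3.60e-04) and rho = 0.94 (permutation p = 2.40e-04, adjusted p = 0.00144). It was 0.98 within HT, 0.88 within WT, 0.89 without HT 4 and HT 1, and 0.92 without HT 4 (exact adjusted p = 0.00519). This pair was as close with the length and GC trend removed (r = 0.98, permutation adjusted p = 2.40e-04). By contrast *Ndn* and *Magel2*, 26.7 kb apart, had r = 0.28 (permutation adjusted p = 0.522).

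*Nnat* and *Blcap* had r = 0.84 (permutation p = 0.00358, adjusted p = 0.0143) and rho = 0.65 (adjusted p = 0.148). Within HT r was 0.83, within WT 0.88, and with the trend removed 0.75 (permutation adjusted p = 0.0447). It was 0.68 without HT 4 (exact adjusted p = 0.165) and 0.43 without HT 4 and WT 3. In each of the 2 negative pairs HT 4 was the lowest library for one gene and the highest for the other. *Meg3* and *Mirg*, the first and the last RNA of the maternal series, had r = -0.77 (permutation p = 0.00976, adjusted p = 0.0254) and rho = -0.65 (adjusted p = 0.148), and -0.56 without HT 4 (exact adjusted p = 0.342). *Cdkn1c* and the noncoding RNA *Kcnq1ot1*, which silences the paternal copy of *Cdkn1c*, had r = -0.79 (permutation p = 0.0106, adjusted p = 0.0254) and rho = -0.60 (adjusted p = 0.177), and -0.45 without HT 4 (exact adjusted p = 0.466). Without the 2 libraries farthest from the median of the first gene, r was -0.37 and -0.16. This step narrows the range of the first gene, so it cannot show whether a relation fails. Within HT, r was -0.84 for *Meg3* and *Mirg* and -0.80 for *Cdkn1c* and *Kcnq1ot1*, and within WT -0.68 and -0.83. With the length and GC trend removed, r was -0.87 for *Meg3* and *Mirg* (permutation adjusted p = 0.00864) and -0.43 for *Cdkn1c* and *Kcnq1ot1* (permutation adjusted p = 0.395). The other 7 pairs lay between -0.51 (*Trappc9* and *Peg13*) and 0.45 (*H19* and *Igf2*, *Mest* and *Copg2*). *Meg3* and *Rian* had r = 0.14 over all 10 libraries, 0.75 within HT and -0.95 within WT, and 0.75 with the length and GC trend removed (permutation adjusted p = 0.0495).

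**Figure D5:**
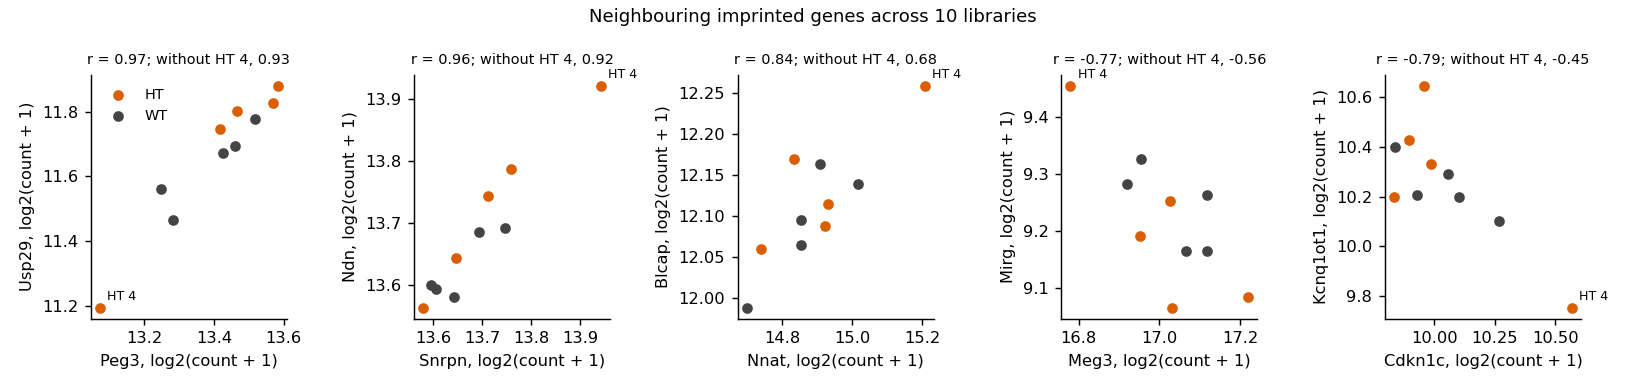
Log2(normalised read count + 1) of the 5 pairs of neighbouring imprinted genes that passed, 1 point per library with HT 4 marked. Peg3 with Usp29 and Snrpn with Ndn stay on a line without HT 4 (r = 0.93 and 0.92), and the other 3 pairs are looser without it.

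Of 42 further imprinted genes, 37 had a row and 34 were tested. Of these, 22 lay above 0 (64.7%, against 46.4% of all genes tested) and 12 below. Without HT 4 it was 20 and 14 (58.8% above 0, against 49.6%). With the length and GC trend removed 26 lay above 0 (76.5%, against 54.3%), and with both changes again 26 (76.5%, against 54.5%). With all libraries and no trend removed, 1 (2.94%, against 3.41% of all genes tested) had an unadjusted p under 0.05. This was *Slc22a2*, a transporter of organic cations in the *Igf2r* domain, at 19.7, 20.3, 19.7, 18.6 and 24.2 in HT and 16.0, 13.2, 10.3, 10.1 and 14.4 in WT. These are low counts, for which the error of counting reads was not modelled. The groups did not overlap, which held for 1 of the 34 (2.94%), against 0.629% of all genes tested. The log2 fold change of *Slc22a2* was 0.65 ± 0.22 (limma p = 0.0117, adjusted p = 1.00; exact permutation p = 0.00794), and 0.68 without HT 4. The domain lies on the chromosome of the edited gene, with *Slc22a2* 7.24 Mb, *Igf2r* 7.33 Mb and *Airn* 7.39 Mb from *Arid1b*. *Igf2r* had a log2 fold change of -0.12 (exact permutation p = 0.413), and -0.0096 without HT 4. Without HT 4, 5 of the 34 (14.7%; 8.40% of all genes) had an unadjusted p under 0.05. With the length and GC trend removed there were 3 (8.82%; 4.38% of all genes), and with both changes also 3 (8.82%; 8.07% of all genes).

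Of 15 regulators of imprints, 4 lay above 0 (26.7%, against 46.4% of all genes tested) and 11 below, with a median log2 fold change of -0.027. Without HT 4 it was 9 above (60.0%, against 49.6%) and 6 below, with a median of 0.023. With the length and GC trend removed it was 7 above (46.7%, against 54.3%) and 8 below. *Zfp57* (-0.026), *Zfp445* (-0.073), *Trim28* (0.061), their corepressor, and *Dnmt1* (-0.027), the methyltransferase that copies methylation at replication, had exact permutation p of 0.563 to 0.873, and all 4 changed sign without HT 4. *Dnmt3b*, a methyltransferase that sets new methylation, was the 1 of 15 (6.67%, against 3.41% of all genes tested) with an unadjusted p under 0.05, at 112, 114, 103, 92.1 and 108 in HT and 77.4, 85.1, 99.1, 84.4 and 83.3 in WT. The groups overlapped only in that HT 4 (92.1) was below WT 3 (99.1). The log2 fold change of *Dnmt3b* was 0.30 ± 0.11 (limma p = 0.0218, adjusted p = 1.00; exact permutation p = 0.0159). Its limma p was 0.0531 without WT 1, and its log2 fold change 0.35 without HT 4.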

How the data were processed

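Whole-brain poly-A RNA of 10 mice was sequenced as paired reads. Per the labels and the study's methods, Salmon 1.1.0 quantified the reads on GRCm38 with a GC bias correction, and the authors divided the imported gene estimates by DESeq2 1.30.1 size factors. The table the authors deposited thus holds a signal, the normalised read count, in values that are not whole, so count models were not used. HT and WT were taken from the sample labels. Values were analysed as log2(value + 1) with limma 3.58.1 (trend, robust, two-sided, R 4.3.3) on 17020 genes with a mean of 10 or more, with Benjamini-Hochberg adjustment over all of them and a threshold of 0.05. Fold changes on this scale are understated for low genes. Single genes also had a two-sided exact permutation test. Pairs had permutation tests with 100000 resamples, exact where 9 libraries were left. Counting error was not modelled, and precision comes from the spread between mice. The workflow was tested on simulated data.

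Gene models were those of GENCODE M21 (GRCm38). Shared 30-base words were counted against all of its transcripts. The members, lists and tests were chosen with earlier results of these data known. Values in every library are given for members with an unadjusted p under 0.05 or without overlap, the 10 highest per kilobase, the 5 with the largest SD, *Arid1b* and *Igf2*, and for *Magel2*, added after its values were seen. The settings tried were pseudocounts of 10 and 0.5, no minimum mean and one of 100, quantile normalisation, sample weights, a replicate block, a length and GC trend removed, and each library left out. The fit without HT 4 and with the trend removed was added after seeing the data.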

Additional observations from a re-analysis of the deposited data

Results flagged for a closer look

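In each group of 5 libraries, the distance of the highest or lowest library from its nearest neighbour was divided by the range of the group and set against a limit of 0.71. Of 78 groups (36 members, *Arid1b* and *Igf2* on the log2 scale and the share of counts in all members, each in HT and in WT), 7 were over it, and chance, which flags about 1 in 20, would give 3.90. HT 4 was the far library in 3, all of the HT groups among them: it was the highest for *Cdkn1c* (ratio 0.789) and the lowest for *Usp29* (0.803) and for *Arid1b* (0.776). In WT, the far library was WT 2, the highest, for *Dlk1* (0.744), WT 1, the lowest, for *Plagl1* (0.736), WT 5, the lowest, for *Peg13* (0.761), and WT 5, the highest, for *Gnas* (0.719). For *Dlk1*, a gene also expressed in the pituitary, WT 2 was at 448 against 316 to 346 in the other WT libraries. The summed pituitary markers (4 of 6 measured) were 2525 in WT 2 and 884 in WT 5, against 16.0 to 87.9 in the other 8 libraries, and *Gh*, *Cga* and *Tshb* were at 0 in at least 1 library. WT 5, at 345, was not high for *Dlk1*, and the part of pituitary tissue was not tested.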

How the results depend on the processing

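Of the 36 members, 22 kept the direction of their log2 fold change under every setting run and 14 did not, and none passed an adjusted p of 0.05 under any. The number of all genes past it was 0, and it was 2 with sample weights, 2 with the length and GC trend removed, 1 with the replicate block and that trend removed, 2 without HT 4 and that trend removed, and 0 to 2 with 1 library left out. *Arid1b* passed with sample weights (-0.60), the trend removed (-0.65), the replicate block with the trend removed (-0.65) and without HT 4 and the trend (-0.58), and with 1 library left out it ranged from -0.73 to -0.57. The median of the paternally expressed members was 0.08 with the trend removed, 0.08 with the block as well, and 0.035 to 0.068 with 1 library left out. Between 2 and 5 pairs passed with 1 library left out. The sign turned with quantile normalisation for *Grb10* (0.007) and *Rian* (-0.014), with sample weights for *Cdkn1c* (-0.089), *Grb10* (0.01) and *Peg13* (0.018), and with the trend removed for *Copg2* (0.019), *Grb10* (0.028), *Kcnq1ot1* (-0.088) and *Peg13* (0.029), with the same values when the replicate block was kept too. Without HT 4 and with the trend removed it turned for *Cdkn1c* (-0.084), *Commd1* (-0.0066), *Copg2* (0.0097), *Grb10* (0.0088), *Kcnq1ot1* (-0.10), *Meg3* (0.055) and *Peg13* (0.032). With 1 library left out the log2 fold change ranged from -0.12 to 0.068 for *Cdkn1c*, -0.0068 to 0.15 for *Commd1*, -0.052 to 0.021 for *Copg2*, -0.026 to 0.03 for *Grb10*, -0.062 to 0.16 for *Kcnq1ot1*, -0.088 to 0.022 for *Meg3*, -0.028 to 0.14 for *Mest*, -0.092 to 0.0054 for *Mirg*, -0.0091 to 0.11 for *Nnat*, -0.022 to 0.035 for *Peg13*, -0.0054 to 0.12 for *Peg3*, -0.035 to 0.15 for *Ube3a* and -0.022 to 0.20 for *Zim1*. The cause of these changes was not tested. Among the members, low counts limit *Rtl1*, *Airn*, *Dio3* and *Peg12* most.

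The HT and WT libraries share replicate numbers, but the labels do not say that a number marks a litter. Deviations from the group means correlated by 0.0911, 0.0843, 0.0815, -0.104 and 0.0926 between libraries of the same number 1 to 5. None was over 0.1, the level asked of every pair, so the numbers were not taken as pairs. As a hint from the data toward pairing, 4 of the 5 HT libraries correlated best with their own number. With the replicate block, 0 genes passed the threshold.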
